A study of Mus musculus with 48 samples.

Results

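The comparison described is anti-PD-1 antibody against isotype control antibody in mouse sarcoma allografts that all received 20 Gy, and it uses 8 of the 48 tumours sequenced, 4 per arm, chosen by their labels and read across all genes. Messenger RNA of whole tumours was sequenced in all of them. Every allograft grew from 50000 cells of 1 line, 402230, mixed with matrigel and injected into the calf muscle (gastrocnemius) of syngeneic 129/SvJae mice, so both arms share the tumour line, the host strain and the radiation. The labels call them p53/MCA sarcomas, a type raised in primary form by adenoviral Cre in the calf of mice with floxed p53 alleles and by the carcinogen MCA. At a volume of about 150 mm3, each mouse received 200 ug of antibody into the peritoneum, either muDX400 (a murine antibody against PD-1) or an isotype control, directly before 20 Gy of X-rays to the tumour-bearing hind limb. Tumours were taken 3 days later. The host muscle around the tumour lay in the same radiation field, and a single line means that the 4 tumours of an arm are repeats of 1 tumour in different animals. The design asks what blocking PD-1 added to radiation at this early time.

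PD-1 (gene Pdcd1) is an inhibitory receptor that T cells put on their surface after activation. When it binds PD-L1 (gene Cd274) on tumour or myeloid cells it dampens signalling from the T cell receptor and from CD28, and a blocking antibody lifts that brake. Activated T cells also display costimulatory receptors such as OX40 (Tnfrsf4), ICOS and GITR (Tnfrsf18) and the inhibitory receptor CTLA-4, all of which are abundant on regulatory T cells. Radiation at a high single dose kills tumour and lymphoid cells and induces DNA damage, interferon and inflammatory programmes.

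No gene passed an adjusted p of 0.05 among the 17746 tested with edgeR's quasi-likelihood test (0% called, smallest adjusted p 0.682), and DESeq2 also called 0. At an unadjusted p under 0.05 edgeR counted 682 genes (3.84%), 451 of them higher with anti-PD-1 (2.54%) and 231 lower (1.3%), and DESeq2 counted 945. With upper quartile scaling in place of the trimmed mean of M values (TMM) the split was 708 higher and 160 lower. The 4 anti-PD-1 tumours all lay above the 4 isotype tumours at 147 genes (0.828%) and all below them at 87 (0.49%). More than 2-fold higher were 669 genes (3.77%) and more than 2-fold lower were 0.671%. The median log2 fold change over all genes was -0.02 and the median standard error (SE) was 0.27. The sizes and directions below are therefore given with unadjusted p-values, and no single gene among them is a call. For this comparison the p-values set each difference against a spread estimated from all allografts in the fit, unirradiated ones included.

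Libraries held 36808039 to 53307204 counts. The gene Xist read 0.075 CPM in isotype replicate 2, 0.89 CPM in anti-PD-1 replicate 3 and 69.8 to 586 CPM in the rest of the 8 tumours. A fit with Xist above 10 CPM as a covariate is called the Xist split below. It had 399 genes higher and 257 lower at an unadjusted p under 0.05 with edgeR. Trp53, the gene deleted in the model, read 39.1 to 46.6 counts per 1000000 (CPM) in the 8 tumours, and the arms overlapped. These counts cover the whole gene and do not show the floxed exons. Mesenchymal markers were present throughout: Pdgfra, a growth factor receptor of mesenchymal cells, was at 116.4 to 719 CPM. Of 8 keratinocyte markers 6 had too few counts to be tested.

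The gene lists, most of them of immune cells and programmes, were chosen with earlier results of these data known, so their counts describe the chosen genes and support no direction. Over 38 lists of 520 genes, 501 were tested and 326 of these (65.1%) had a log2 fold change above 0, beside 47.7% of all genes. At an unadjusted p under 0.05, 43 list genes (8.58%, beside 2.54% of all genes) were higher and 0 were lower (beside 1.3%). Groups that did not overlap were found at 20 list genes (3.99%, beside 0.828%) higher with anti-PD-1 and at 1 gene (0.2%, beside 0.49%) lower. The same shares of all genes stand behind the counts of each list below. The first digit of the animal identifier, whose meaning the labels do not state, was 4 in isotype replicates 1, 3 and 4 and in anti-PD-1 replicate 1 and 5 in the other 4 tumours. It is used below as a covariate, called the identifier digit, and it lowered many list medians. The mean level of adipocyte genes, chosen after seeing the data, is used in the same way. Markers of muscle, fat and blood were among the lists and differed between tumours too, as described further on. In whole tumours, more cells of a type and more RNA per cell cannot be told apart.

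The genes with separate arms and at least 2 CPM in the higher arm were ranked by unadjusted p. Receptors of activated and regulatory T cells were among the first of them. Tnfrsf4 encodes OX40 and lies at chr4:156013843-156016612 on the plus strand (mm10, GENCODE M21). Among the genes so ranked it had the smallest unadjusted p. It read 3.70, 3.17, 3.58 and 2.47 CPM in the isotype tumours and 5.53, 6.08, 7.90 and 6.21 CPM in the anti-PD-1 tumours. All 4 treated tumours lay above all controls. The log2 fold change was 0.99 (SE 0.25, edgeR unadjusted p 0.00124, adjusted p 0.682), and it ran from 0.84 to 1.08 over 20 other ways of fitting the data.

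Ctla4, an inhibitory receptor that competes with CD28 for its ligands, lies at chr1:60887000-60915832 on the plus strand. Its values were 3.24, 2.06, 5.59 and 2.78 CPM with isotype and 5.96, 9.83, 10.4 and 12.5 CPM with anti-PD-1. The arms did not overlap, although the highest control and the lowest treated tumour were close. The log2 fold change was 1.5 (SE 0.39, edgeR unadjusted p 0.00166, adjusted p 0.682). Tnfrsf18, the GITR gene and the neighbour of Tnfrsf4 on chromosome 4, read 5.68, 6.16, 8.49 and 5.77 CPM against 8.65, 11.3, 15.7 and 8.77 CPM, again without overlap (log2 fold change 0.77, SE 0.31).

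Icos, a costimulatory receptor of the CD28 family, read 3.43, 5.11, 10.2 and 5.44 CPM with isotype and 6.50, 13.2, 13.7 and 17.3 CPM with anti-PD-1. Isotype replicate 3 exceeded anti-PD-1 replicate 1, so the arms overlapped (log2 fold change 1.07, SE 0.40, unadjusted p 0.0186). Foxp3, the transcription factor that defines regulatory T cells, had values of 1.15, 1.58, 3.10 and 1.04 CPM against 2.61, 2.14, 2.49 and 6.62 CPM. Here anti-PD-1 replicate 4 stood alone: the log2 fold change of 1.01 (SE 0.41) was 0.49 without that tumour. Of the 11 regulatory and costimulatory receptor genes 10 were higher and 4 had an unadjusted p under 0.05. Their median log2 fold change was 0.77, 0.49 without anti-PD-1 replicate 4 and 0.35 with the identifier digit as a covariate. Il2ra, the high-affinity chain of the interleukin-2 receptor, was at 0.36 (SE 0.35), and Tnfrsf9, the 4-1BB gene, at 0.23 (SE 0.30).

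**Figure D1:**
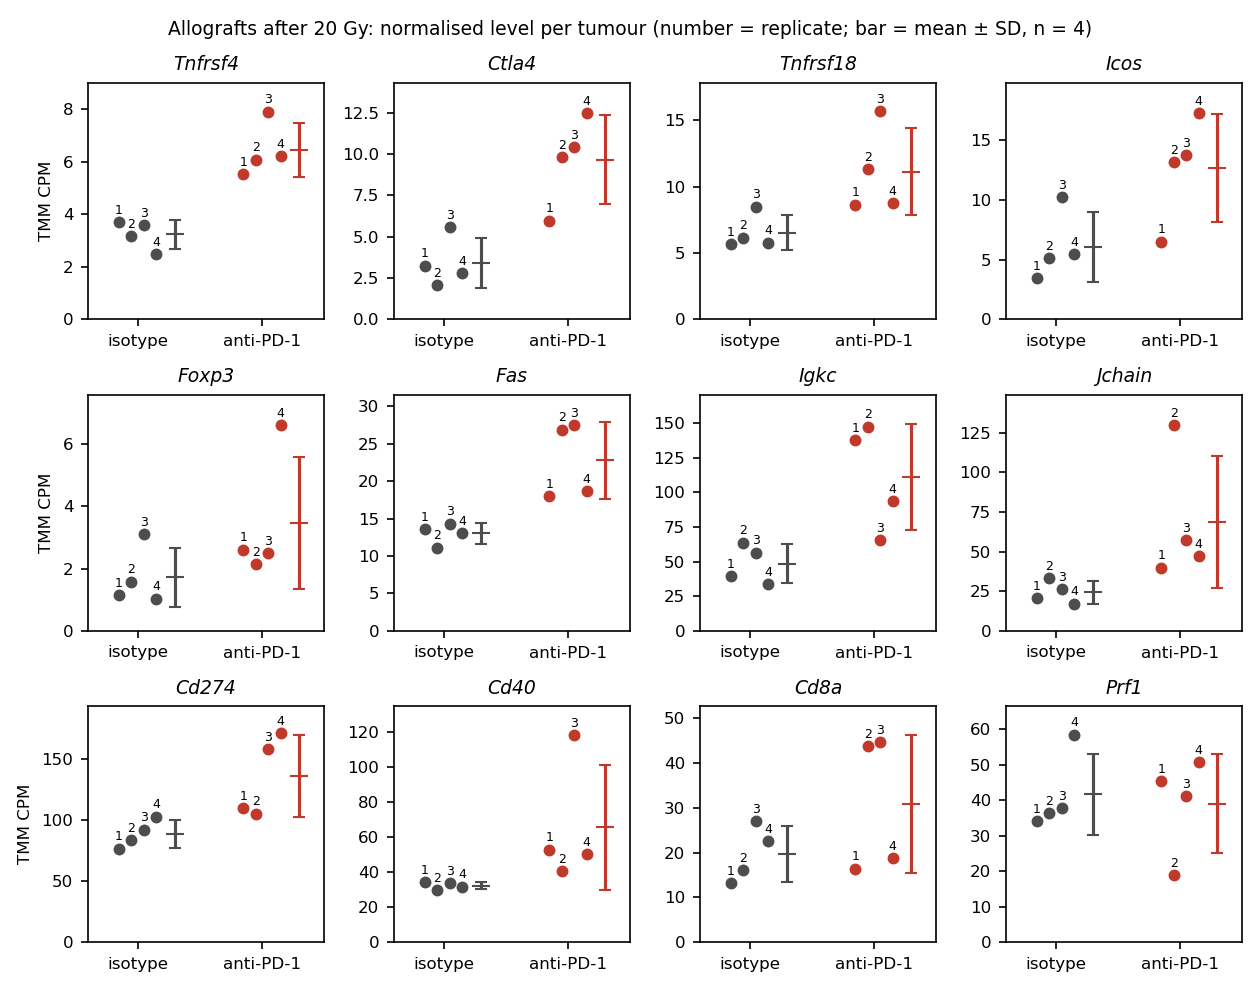
Each panel shows 1 gene in the 8 irradiated allografts, with TMM-normalised CPM on a linear axis from 0, points numbered by replicate and a bar for mean ± SD (n = 4 per arm). The arms separate for Tnfrsf4, Ctla4, Tnfrsf18, Fas, Igkc, Jchain, Cd274 and Cd40 and overlap for Icos, Foxp3, Cd8a and Prf1.

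The 250 bases before the RefSeq start of 6 genes are printed because 5 of them (Tnfrsf4, Ctla4, Tnfrsf18, Fas and Irf8) had arms that did not overlap, and Igtp, a GTPase induced by interferon gamma, shows what a window with both interferon motifs looks like. Capitals mark matches on either strand to the core of the interferon-stimulated response element (ISRE: GAAA, any 2 bases, GAAA) or TTCNNNGAA (the gamma-activated site, GAS, which binds STAT factors). All are written 5′ to 3′ along the gene, from GRCm38.p6. Tnfrsf4 is at chr4:156013445-156013694, Tnfrsf18 at chr4:156026072-156026321, Ctla4 at chr1:60908775-60909024, Fas at chr19:34290409-34290658, Irf8 at chr8:120736108-120736357 and Igtp at chr11:58199306-58199555, and all are on the plus strand.
Tnfrsf4: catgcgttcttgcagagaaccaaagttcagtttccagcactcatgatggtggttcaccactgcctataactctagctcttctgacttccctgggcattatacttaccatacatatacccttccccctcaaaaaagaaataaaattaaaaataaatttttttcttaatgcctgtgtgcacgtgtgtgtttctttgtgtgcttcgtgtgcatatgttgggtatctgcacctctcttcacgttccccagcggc
Tnfrsf18: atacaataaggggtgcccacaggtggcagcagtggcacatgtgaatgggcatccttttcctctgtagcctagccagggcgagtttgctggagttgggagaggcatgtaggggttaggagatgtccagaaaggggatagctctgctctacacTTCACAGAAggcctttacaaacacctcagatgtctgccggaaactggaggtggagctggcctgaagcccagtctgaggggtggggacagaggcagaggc
Ctla4: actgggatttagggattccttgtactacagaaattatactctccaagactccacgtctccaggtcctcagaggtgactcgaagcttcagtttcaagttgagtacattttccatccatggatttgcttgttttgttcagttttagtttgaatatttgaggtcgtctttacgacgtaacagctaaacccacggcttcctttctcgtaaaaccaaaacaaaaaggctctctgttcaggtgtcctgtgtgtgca
Fas: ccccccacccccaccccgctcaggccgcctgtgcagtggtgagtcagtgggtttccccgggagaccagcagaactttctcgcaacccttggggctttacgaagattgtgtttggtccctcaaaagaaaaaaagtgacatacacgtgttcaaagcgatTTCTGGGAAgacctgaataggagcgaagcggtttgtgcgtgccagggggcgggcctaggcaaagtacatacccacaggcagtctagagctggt
Irf8: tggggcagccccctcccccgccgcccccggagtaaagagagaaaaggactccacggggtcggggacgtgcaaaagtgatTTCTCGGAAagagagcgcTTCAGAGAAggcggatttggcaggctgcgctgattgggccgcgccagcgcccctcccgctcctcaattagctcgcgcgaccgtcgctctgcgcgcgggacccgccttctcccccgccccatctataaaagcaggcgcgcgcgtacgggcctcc
Igtp: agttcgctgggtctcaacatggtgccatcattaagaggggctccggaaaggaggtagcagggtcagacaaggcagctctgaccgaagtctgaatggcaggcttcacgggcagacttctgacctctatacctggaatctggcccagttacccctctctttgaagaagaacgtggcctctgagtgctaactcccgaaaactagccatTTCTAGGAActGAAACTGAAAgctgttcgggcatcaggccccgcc

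In Tnfrsf4 and Ctla4 neither set of letters occurred. Tnfrsf18 and Fas each held 1 GAS match, at 99 and 93 bases before the start, and the window of Irf8 printed here held 2. Igtp held a GAS match and an ISRE match next to each other. Among all 27025 genes with a promoter window of this length 3.46% held an ISRE match and 8.13% a GAS match. The interferon gamma list, with ISRE matches in 10 of 12 genes and GAS matches in 8 of 12, had a median log2 fold change of 0.26, while 0 of the 7 regulatory and costimulatory receptor genes with a window held an ISRE match and 3 held a GAS match. Across the table the 2 motifs shared bases in 18 of 32851 windows. RefSeq and GENCODE can place a start differently, so a window need not end at the gene start given here. A match describes letters only.

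The 19 genes of the T cell receptor complex and its signalling partners all had a log2 fold change above 0, but 0 passed the adjusted threshold and the level of the list overlapped between the arms. Their median log2 fold change was 0.76, from 0.36 for Zap70 to 1.51 for Cd3d, and 5 of 19 had an unadjusted p under 0.05. With the identifier digit as a covariate the median was 0.34 and 0 of 19 had such a p, and among the tumours with digit 4 the level of the list was 0.08 lower in the treated tumour than the mean of the controls. Cd3e, an invariant chain of the T cell receptor complex, read 5.93, 10.6, 20.0 and 13.7 CPM with isotype and 9.72, 22.9, 23.4 and 18.6 CPM with anti-PD-1 (log2 fold change 0.57, SE 0.42). Replicate 1 was the lowest tumour of each arm, and the arms overlapped. Cd8a, the coreceptor of cytotoxic T cells, read 13.1, 16.1, 27.1 and 22.6 CPM against 16.4, 43.6, 44.6 and 18.8 CPM (log2 fold change 0.65, SE 0.40). Anti-PD-1 replicates 2 and 3 were well above every control, while replicates 1 and 4 lay inside the range of the controls. Cd4, the coreceptor of helper and regulatory T cells, was at 6.04, 10.2, 17.9 and 9.18 CPM against 8.26, 34.2, 16.3 and 17.2 CPM (log2 fold change 0.81, SE 0.54). With the identifier digit as a covariate Cd3e, Cd8a and Cd4 were at 0.16, 0.21 and 0.17.

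Relative to Cd3e in the same tumour, Ctla4 was 0.306 ± 0.165 with isotype and 0.540 ± 0.121 with anti-PD-1 (mean ± SD, n = 4), and Icos was 0.493 ± 0.0754 against 0.691 ± 0.165. Other receptors of this kind moved less or the other way. Tnfrsf4 was 0.321 ± 0.210 against 0.377 ± 0.132 and Tnfrsf18 0.596 ± 0.252 against 0.632 ± 0.193. Il2ra was lower, at 0.977 ± 0.404 against 0.808 ± 0.385, and Foxp3 was 0.144 ± 0.0493 against 0.206 ± 0.128. All these ratios of CPM overlapped between arms. Cd8a per Cd3e was 1.69 ± 0.375 against 1.63 ± 0.424, and Pdcd1 per Cd3e was 0.796 ± 0.258 against 0.738 ± 0.191. Pdcd1 itself, the gene of the blocked receptor, read 6.88, 8.30, 13.2 and 7.91 CPM against 9.34, 16.6, 17.9 and 9.21 CPM, with a log2 fold change of 0.55 (SE 0.39), which was 0.27 with the identifier digit. Only Ctla4 of the 12 inhibitory receptor genes had an unadjusted p under 0.05. Their median was 0.50 with 10 higher, and it was 0.33 without anti-PD-1 replicate 2, 0.81 without isotype replicate 3 and 0.25 with the identifier digit as a covariate. Lag3 was at -0.12 (SE 0.36), Havcr2, the TIM-3 gene, at -0.01 (SE 0.24) and Tigit at 0.21 (SE 0.38).

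Cytotoxic genes were less uniform. Of 14 effector genes 10 were higher, with a median of 0.47 and 1 (Ctsw) at an unadjusted p under 0.05. Gzmb, the granzyme of activated killer cells, read 163, 130.6, 169.5 and 202 CPM with isotype and 243, 142.3, 387 and 235 CPM with anti-PD-1 (log2 fold change 0.60, SE 0.46, and 0.33 without replicate 3 of the anti-PD-1 arm and 0.96 with the adipocyte level). Replicate 3 was highest and replicate 2, one of the tumours richest in Cd8a, lay within the controls. Prf1, which encodes the pore-forming protein perforin, did not follow the T cell markers: it was at 34, 36.3, 37.7 and 58.4 CPM against 45.3, 18.9, 41.1 and 50.6 CPM, with a log2 fold change of -0.09 (SE 0.47). Its lowest value belonged to anti-PD-1 replicate 2. Gzmk, a granzyme of memory T cells, read 1.3, 1.84, 4.97 and 5.38 CPM against 2.25, 13.9, 17.5 and 3.72 CPM (log2 fold change 1.47, SE 0.70, and 0.50 with the identifier digit). Ifng, the interferon gamma gene, read 0.786, 2.47, 2.85 and 2.21 CPM against 3.30, 2.05, 5.24 and 3.96 CPM (log2 fold change 0.81, SE 0.54).

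NK cell genes were higher at 12 of 12, with a median of 0.77 and 3 at an unadjusted p under 0.05. Klrd1, the CD94 receptor chain, read 7.54, 5.38, 12.4 and 6.92 CPM with isotype and 7.45, 32.2, 29.8 and 8.28 CPM with anti-PD-1 (log2 fold change 1.27, SE 0.44). The difference lay in replicates 2 and 3, and without replicate 2 none of the 12 genes had an unadjusted p under 0.05 although all 12 were still higher. Ncr1, the NKp46 gene of NK cells, had a log2 fold change of 0.70 (SE 0.33, unadjusted p 0.0521). Il10, a cytokine that restrains inflammation, was low but separated the arms at 1.59, 1.18, 1.47 and 0.546 CPM against 1.66, 2.66, 3.02 and 2.38 CPM (log2 fold change 1.02, SE 0.40). The cytokine genes Il2, Il5, Il13, Il17a and Il21 had too few counts to be tested.

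Igkc and Jchain, a pair of antibody genes, were higher in every treated tumour than in any control. Igkc, the constant region of kappa light chains, read 39.6, 63.7, 56.5 and 33.9 CPM with isotype and 137.4, 147, 65.5 and 93.6 CPM with anti-PD-1, and the arms did not overlap (log2 fold change 1.20, SE 0.40, edgeR unadjusted p 0.00899). Jchain, which joins IgM and IgA units in plasma cells, read 20.6, 33.4, 26.3 and 17.1 CPM against 39.8, 130.01, 57.5 and 47.4 CPM (log2 fold change 1.5, SE 0.49). Anti-PD-1 replicate 2 held the highest level of both. The 12 B and plasma cell genes tested of 14 had 11 higher and a median of 0.83, which was 0.49 with the identifier digit and 0.43 with the adipocyte level as a covariate. Their mean level separated the arms: 1.55, 1.49, 1.44 and 1.3 against 1.65, 2.31, 1.91 and 1.74, on the scale of the mean of log2(CPM + 0.5). Igkv19-93, a single kappa variable segment, was at 10.8 CPM in anti-PD-1 replicate 1 and at 0.0260 to 2.00 CPM in the other 7 tumours.

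Receptor gene segments were then summed by the GENCODE class of each gene, a set chosen after the values of Igkc and Igkv19-93 had been seen. Immunoglobulin segments had a median log2 fold change of 0.88 and 80% of those tested were higher. At an unadjusted p under 0.05, 24 were higher (20.9% of those tested, beside 2.54% of all genes) and 2 were lower (1.74%, beside 1.3%). Having been chosen this way, these shares support nothing further. Their summed level was 253, 402, 353 and 208 CPM with isotype and 611, 649, 348 and 578 CPM with anti-PD-1, so replicate 3 lay among the controls. T cell receptor segments were higher at 32 of 35 tested with a median of 0.87, and their sums were 32.9, 32.1, 53.1 and 39.7 CPM against 40.3, 99.1, 98.8 and 51.2 CPM. Replicate 2 was highest in both sums, while replicate 1 was high in immunoglobulin and low in T cell receptor segments and replicate 3 the reverse. Segments resemble each other, so reads may be split among them, and the sums are less affected than single segments.

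Myeloid genes formed the third group. Of 22 monocyte and macrophage identity genes 20 were higher, with a median of 0.40 and 2 at an unadjusted p under 0.05. Without anti-PD-1 replicate 2 the median was 0.20 with 18 of 22 higher and 0 at that p. Adgre1, the F4/80 gene of mouse macrophages, read 338, 235, 245 and 242 CPM with isotype and 234, 569, 240.0 and 254 CPM with anti-PD-1, so that replicate 2 alone stood out. Its log2 fold change of 0.29 (SE 0.41) turned to -0.11 without that tumour. Fcgr3, an activating Fc receptor, read 238, 162, 225 and 203 CPM against 239, 546, 437 and 205 CPM (log2 fold change 0.78, SE 0.34). Trem2, a lipid receptor of tissue macrophages, read 12.9, 11.4, 8.91 and 8.84 CPM against 12.8, 54.1, 19.6 and 8.39 CPM (log2 fold change 1.17, SE 0.47, and 0.40 without anti-PD-1 replicate 2). Replicates 1 and 4 were at the level of the controls for both. Csf1r, the receptor of the macrophage growth factor CSF-1, was at -0.03 (SE 0.29).

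Among 16 neutrophil genes 13 were higher with a median of 0.84, which was 0.39 with the identifier digit. Cxcr2, the receptor by which neutrophils follow CXC chemokines, read 6.14, 5.23, 10.9 and 3.56 CPM against 5.83, 40.3, 21.1 and 16 CPM (log2 fold change 1.69, SE 0.66). Treated replicates 2, 3 and 4, the 3 with digit 5, were above every control. Its ligand Cxcl5 read 14.4, 14.1, 14.8 and 8.25 CPM against 6.99, 35.5, 22.7 and 53.1 CPM (log2 fold change 1.20, SE 0.50), with the lowest level of all in anti-PD-1 replicate 1. With the identifier digit as a covariate Cxcr2 was at 0.36 and Cxcl5 at 0.11. All 7 neutrophil attractant genes were higher, with a median of 0.39, which was 0.09 with the digit, 0.97 without isotype replicate 1, 0.22 without isotype replicate 4 and 0.23 without anti-PD-1 replicate 3.

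Dendritic cell genes were higher at 13 of 15 with a median of 0.78, which was 0.23 without anti-PD-1 replicate 2, 0.31 with the identifier digit and 0.29 with the adipocyte level. Ccl22, a chemokine of mature dendritic cells that attracts regulatory T cells through CCR4, read 1.19, 3.45, 2.60 and 1.98 CPM against 2.10, 10.1, 6.03 and 3.09 CPM (log2 fold change 1.21, SE 0.55). Batf3, a factor of cross-presenting dendritic cells, was at 0.78 (SE 0.36). Mast cell and eosinophil genes were higher at 13 of 13 with a median of 1.09, and 1.78 without isotype replicate 3, but with the identifier digit as a covariate 3 of 13 were higher and the median was -0.14. Siglecf, a surface receptor of eosinophils, was at 0.518, 1.01, 0.564 and 0.780 CPM with isotype and at 0.435, 5.70, 6.70 and 0.547 CPM with anti-PD-1, so that 2 treated tumours carried the signal (log2 fold change 2.22, SE 1.05, and 0.40 with the digit). Il4, a cytokine of type 2 immunity, separated the arms but was at 0.0192 to 0.0564 CPM with isotype and at 0.0768 to 1.15 CPM with anti-PD-1 (log2 fold change 3.33, SE 1.09, unadjusted p 0.00798).

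Chemokines that recruit monocytes were higher at 9 of 11, with a median of 0.43, which was 0.85 without isotype replicate 1, 0.27 without isotype replicate 2 and 0.21 without anti-PD-1 replicate 3. Ccl8, a ligand of several CC receptors, read 155, 131.6, 179 and 108.4 CPM against 182, 742, 674 and 150.2 CPM (log2 fold change 1.61, SE 0.69), and Ccl6 read 31.0, 43.6, 63.2 and 48.9 CPM against 54.6, 319, 153 and 50.8 CPM (log2 fold change 1.63, SE 0.60). Both again marked replicates 2 and 3, and Ccl8 was at 0.55 with the identifier digit and Ccl6 at 0.43 with the adipocyte level. Cxcr6, a homing receptor of tissue T cells, had the same pattern at 6.27, 4.68, 9.68 and 5.12 CPM against 7.16, 29.4, 32.4 and 6.10 CPM (log2 fold change 1.55, SE 0.54, and 0.77 with the digit). Cxcl9, the interferon gamma-induced chemokine that draws CXCR3+ T cells, did not: it read 572, 744, 979.7 and 1219 CPM against 1023, 439.9, 1122 and 1348 CPM (log2 fold change 0.16, SE 0.46), with its lowest value in replicate 2.

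The 19 interferon gamma response genes were higher at 18 of 19, with a median of 0.26 and 0 at an unadjusted p under 0.05. Irf8, an interferon-induced factor of myeloid cells, separated the arms at 162, 177, 189.7 and 203 CPM against 215, 237, 242 and 256 CPM (log2 fold change 0.38, SE 0.22). Irf1, which drives many interferon gamma targets, read 327, 409, 379 and 420.3 CPM against 523, 266, 478 and 638 CPM (log2 fold change 0.31, SE 0.27), with anti-PD-1 replicate 2 the lowest of all 8. Its log2 fold change was 0.13 without anti-PD-1 replicate 4 and 0.63 with the adipocyte level. The mean level of the list was 7.13, 7.26, 7.52 and 7.65 with isotype and 7.75, 6.81, 7.67 and 8.09 with anti-PD-1. Both ends of this range mattered: without replicate 2 the median was 0.44 with 19 of 19 higher, and without replicate 4 it was 0.03 with 12 of 19 higher.

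Type I interferon response genes had no stable direction. Of 23 genes 7 were higher and the median was -0.13, and it stayed below 0 in 11 of 15 other settings. It was 0.03 without anti-PD-1 replicate 2, 0.03 without isotype replicate 1 and 0.04 with 15 of 23 higher with the identifier digit as a covariate. Without anti-PD-1 replicate 1 it was -0.36, with 4 genes lower at an unadjusted p under 0.05. Without isotype replicates 2 and 3 in turn it was -0.24 and -0.23. Ifit3, an antiviral effector, read 819, 380.3, 304 and 444 CPM against 629.6, 193, 367 and 284 CPM (log2 fold change -0.40, SE 0.41). Slfn4, a Schlafen gene of myeloid cells, was the one gene of the list at an unadjusted p under 0.05, with 249.8, 153, 137.7 and 112.8 CPM against 223, 212, 413 and 220.4 CPM (log2 fold change 0.71, SE 0.29, unadjusted p 0.0289). MHC class I presentation genes were higher at 8 of 14 with a median of 0.05, which ran from -0.04 without anti-PD-1 replicate 4 to 0.24 without replicate 2, and H2-K1 was at -0.13 (SE 0.29). MHC class II genes were higher at 10 of 10 with a median of 0.43, which was 0.27 with 9 of 10 higher with the identifier digit. Among the tumours with digit 4 their level was 0.08 lower in the treated tumour than the mean of the controls. H2-Aa, a class II chain, read 1644, 1635, 2447 and 1586 CPM against 1750.1, 3665, 3081 and 1904 CPM (log2 fold change 0.51, SE 0.36).

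Ligands of checkpoint and costimulatory receptors separated the arms as a list: the mean level was 3.73, 3.67, 3.75 and 3.76 with isotype and 3.86, 3.91, 4 and 4.02 with anti-PD-1, with 9 of 14 genes higher and a median of 0.33. That median was 0.20 without anti-PD-1 replicate 4, 0.095 with the identifier digit and 0.22 with the adipocyte level. Cd274, the PD-L1 gene, read 76.6, 83.5, 92.0 and 102.7 CPM against 109.7, 104.96, 157 and 171 CPM. These groups did not overlap, by a margin of a few CPM (log2 fold change 0.61, SE 0.39, unadjusted p 0.138, and 0.27 with the digit). Cd40, which licenses antigen-presenting cells when T cells engage it, read 34.3, 29.9, 33.7 and 31.9 CPM against 53.1, 40.8, 118.4 and 50.4 CPM (log2 fold change 1.02, SE 0.44, and 0.59 without anti-PD-1 replicate 3). Every treated tumour was above every control and replicate 3 was the highest by a wide margin. Cd86, the ligand shared by CD28 and CTLA-4, was at 0.56 (SE 0.29), and Pdcd1lg2, the PD-L2 gene, at 0.91 (SE 0.55).

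Fas, a death receptor and p53 target at chr19:34290666-34327772 on the plus strand, read 13.6, 11.1, 14.3 and 13.1 CPM with isotype and 18.0, 26.8, 27.5 and 18.7 CPM with anti-PD-1. The arms did not overlap, and the log2 fold change was 0.81 (SE 0.24, edgeR unadjusted p 0.00449, adjusted p 0.682). Its ligand Fasl was at 0.69 (SE 0.36). Casp4, an inflammatory caspase, read 21, 12.9, 12.6 and 11.8 CPM against 21.1, 24.0, 30.3 and 24.2 CPM (log2 fold change 0.77, SE 0.25). Isotype replicate 1 and anti-PD-1 replicate 1 were nearly level, and the arms just failed to overlap. Tnip3, an inhibitor of NF-kappaB signalling, was at 3.57, 2.72, 2.29 and 2.47 CPM against 4.68, 5.80, 7.47 and 5.28 CPM (log2 fold change 1.07, SE 0.31). The p53 target list as a whole had 14 of 20 higher with a median of 0.14. It turned to -0.06 with 8 of 20 higher without anti-PD-1 replicate 2, and to -0.07 with 8 of 20 higher with the adipocyte level as a covariate. Cdkn1a, the p21 gene, was at 0.18 (SE 0.25).

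Proliferation and stromal lists had medians below 0, but the level of each list overlapped between the arms. With all tumours in the fit, 0 genes of the mitosis, replication, matrix, protease and mesenchymal lists had an unadjusted p under 0.05. Without anti-PD-1 replicate 4, 10 mitosis, 9 replication, 9 matrix and 1 protease genes were lower at that p. Without anti-PD-1 replicate 1, 2 mitosis, 6 replication and 4 protease genes were lower at that p. Without anti-PD-1 replicate 2 or 3, the mitosis, replication, matrix and protease counts stayed at 0. The 16 genes of mitosis all had a log2 fold change below 0, with a median of -0.37, and so did 15 of the 16 replication genes, with a median of -0.36. Mki67, the Ki-67 proliferation marker, read 99.1, 131.98, 134.2 and 179 CPM with isotype and 77.0, 53.1, 74.5 and 178 CPM with anti-PD-1 (log2 fold change -0.51, SE 0.34). Replicates 1 to 3 lay below every control and replicate 4 did not. The mean level of the mitosis list was 5.79, 5.97, 5.75 and 5.86 against 5.75, 4.54, 5.29 and 5.98, and its median was -0.13 without replicate 2, with 3 of 16 higher. The replication median was -0.14 without that tumour, with 5 of 16 higher. Without replicate 4 the medians were -0.55 for mitosis and -0.53 for replication, and with the adipocyte level they were -0.19 and -0.17.

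Extracellular matrix genes were below 0 at 16 of 16 with a median of -0.48, and matrix proteases and inhibitors at 10 of 10 with a median of -0.38. The matrix median was -0.17 with 5 of 16 higher without isotype replicate 3, -0.24 without anti-PD-1 replicate 3, -0.74 without isotype replicate 1 and -1.01 without anti-PD-1 replicate 4. The protease median was -0.19 without anti-PD-1 replicate 2, -0.25 without replicate 3 and -0.71 without replicate 1, -0.24 with the identifier digit and -0.07 with the adipocyte level as a covariate. Col1a2, a chain of type I collagen, ranged more within the isotype arm than between arms, at 625, 2127, 7255 and 1406 CPM against 917, 1422, 686 and 3156 CPM, and its log2 fold change of -0.88 (SE 0.62) turned to 0.17 without isotype replicate 3. Pdgfra read 432, 506, 382 and 719 CPM against 421, 116.4, 174 and 496 CPM (log2 fold change -0.76, SE 0.45). Mesenchymal markers were below 0 at 8 of 9 with a median of -0.34, which was -0.15 with the adipocyte level, -0.09 without replicate 2, -0.53 without replicate 4 and -0.59 without replicate 1. The 10 lower genes with the smallest p and separate arms were Ica1, Stxbp4, Haspin, Zfp526, Mypop, Zbtb12, Cyp2u1, BC037039, Lancl2 and March9. Ica1, an autoantigen of islet cells, read 3.59, 3.85, 3.5 and 4.14 CPM against 2.69, 1.53, 1.92 and 2.73 CPM (log2 fold change -0.76, SE 0.23, unadjusted p 0.00474). Haspin, a kinase of mitotic histones, read 14.0, 16.3, 12.7 and 16.2 CPM against 12.1, 6.03, 10.3 and 12.7 CPM (log2 fold change -0.52, SE 0.19).

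Tumours of both arms differed widely over the lists. Among the anti-PD-1 tumours, replicate 2 was the highest of all 8 in 12 of the 38 lists, replicate 4 in 9, replicate 3 in 7 and replicate 1 in 2. Isotype replicate 1 was the lowest in 14 lists, anti-PD-1 replicate 2 in 10 and isotype replicate 2 in 9. Anti-PD-1 replicate 2 had the lowest mesenchymal level, 5.96 against 7.27 to 7.59 in the isotype tumours. Replicate 3 followed at 6.70, while replicates 1 and 4 were at 7.43 and 7.45. In anti-PD-1 replicates 2 and 3 the mitochondrial share of counts was 2.71% and 1.96%, against 0.483 to 0.937% in the other 6, and its part in the results was not tested. Leaving out replicate 2 lowered the number of genes at an unadjusted p under 0.05 from 682 to 281 and leaving out replicate 3 lowered it to 345. Leaving out replicate 4 raised it to 3591, of which 2400 were lower, and leaving out replicate 1 raised it to 1906. In the isotype arm the count was 1269 without replicate 1, 435 without replicate 2, 768 without replicate 3 and 301 without replicate 4. The T cell list kept all 19 genes higher without anti-PD-1 replicate 2 (median 0.59), without replicate 3 (median 0.66) and without replicate 1 (median 0.98). Its count at an unadjusted p under 0.05, 5 with all 8 tumours, was then 2, 1 and 10. Without isotype replicate 3 that count was 11.

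**Figure D2:**
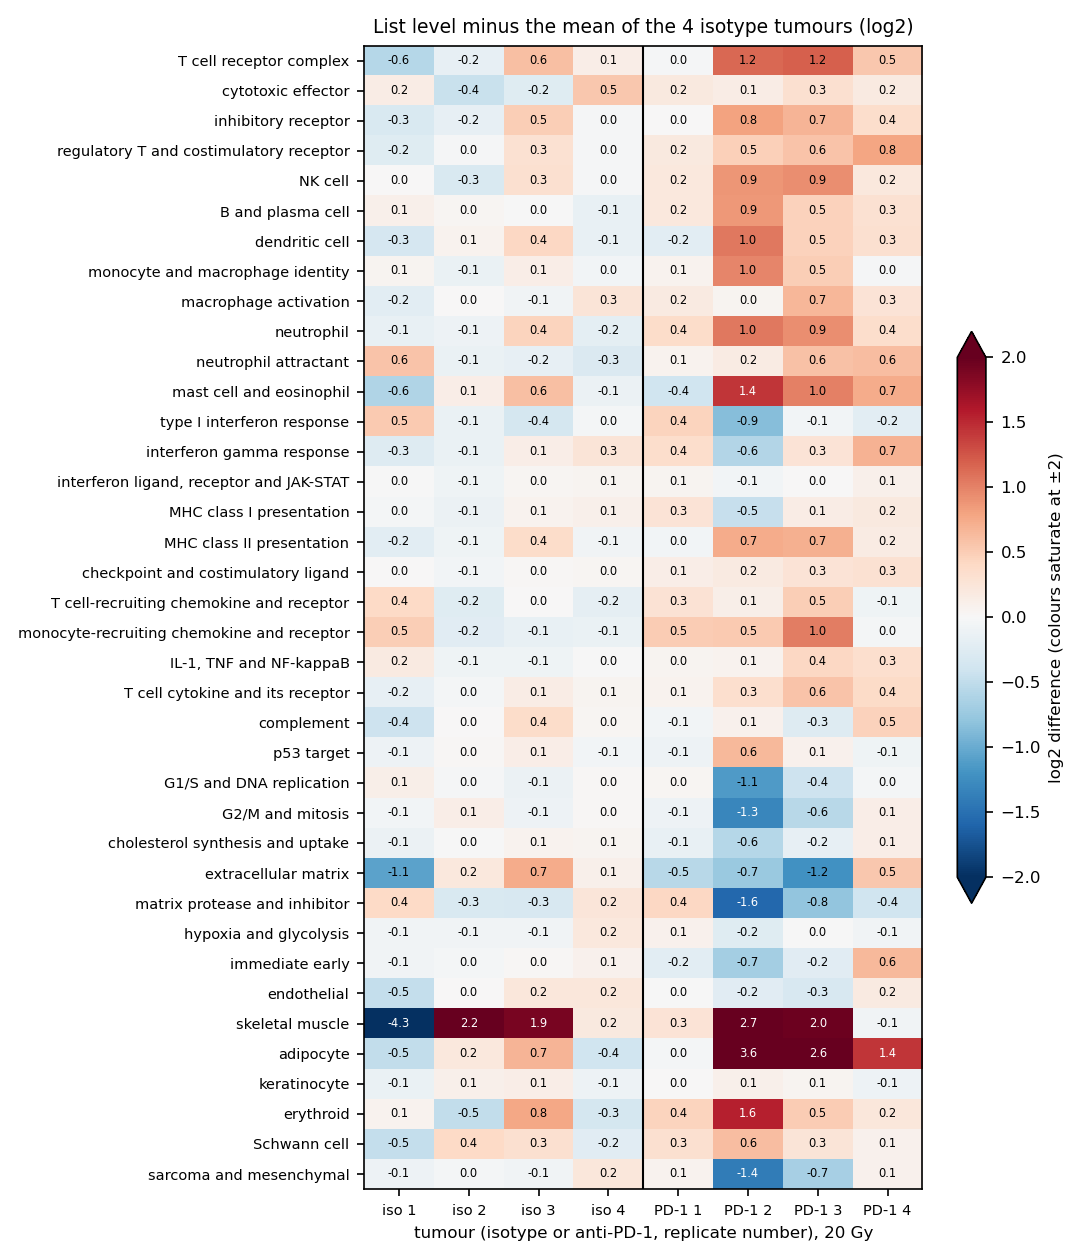
Rows are the 38 gene lists and columns the 8 irradiated allografts; colour and number give the mean of log2(CPM + 0.5) over the members minus the mean of the 4 isotype tumours. Anti-PD-1 replicates 2 and 3 are high for T cell, NK cell, macrophage and neutrophil lists and for fat, and low for mitosis and mesenchymal lists, while replicates 1 and 4 lie closer to the isotype tumours.

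Fat genes were also highest in anti-PD-1 replicates 2 and 3. All 7 adipocyte genes tested of 8 were higher with a median of 4.17 (2.38 with the identifier digit), and 5 had an unadjusted p under 0.05. Their mean level was -0.40, 0.31, 0.77 and -0.29 with isotype and 0.06, 3.74, 2.69 and 1.53 with anti-PD-1. Adipoq, the adiponectin gene and a defining marker of fat cells, read 0.0192, 0.126, 0.959 and 0 CPM against 0.435, 22, 4.86 and 2.43 CPM. In a fit with the adipocyte level as a covariate, chosen after seeing the data, 159 genes had an unadjusted p under 0.05. The T cell list then had 19 of 19 genes higher with a median of 0.58, but 0 in place of 5 at an unadjusted p under 0.05, and the interferon gamma list had a median of 0.68. Type I interferon genes became higher at 23 of 23, with a median of 0.27. Skeletal muscle genes spread widely in both arms, at list levels of 2.37, 8.82, 8.55 and 6.84 against 6.92, 9.34, 8.61 and 6.57. Of 18 muscle genes 17 were higher with a median of 0.36, which was -0.18 without anti-PD-1 replicate 2, -0.05 without isotype replicate 1 and 1.01 without isotype replicate 2. It was -1.18 with 1 of 18 higher with the adipocyte level, and -0.23 with 3 of 18 higher with the identifier digit. Globin and other erythroid genes were higher at 7 of 7 with a median of 0.93, which was 0.35 without anti-PD-1 replicate 2, 1.43 without isotype replicate 3, 0.16 with the identifier digit and 0.39 with the adipocyte level. The part of fat, muscle and blood in the immune values was not tested beyond these fits.

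The remaining lists were mixed, and their medians moved with single tumours and covariates. Macrophage activation genes were higher at 9 of 12 with a median of 0.56, and at 7 of 12 with 0.05 with the identifier digit. T cell cytokine genes were higher at 8 of 9 tested with 0.31, and at 0.34 to 0.74 with 1 tumour left out. IL-1, TNF and NF-kappaB genes were higher at 12 of 15 with 0.23, which was 0.14 without anti-PD-1 replicate 4 and 0.03 with the identifier digit. Chemokines that recruit T cells were higher at 8 of 11 with a median of 0.22. It was 0.13 without anti-PD-1 replicate 3, 0.15 without replicate 1 and 0.34 without replicate 4, 0.41 without isotype replicate 1 and 0.34 without isotype replicate 4, and 0.57 with the adipocyte level. Complement genes were higher at 7 of 11 with 0.11 (-0.16 without isotype replicate 1, -0.20 without anti-PD-1 replicate 4 and -0.01 with the identifier digit), and interferon ligands and their JAK-STAT relays at 7 of 11 with 0.02. Cholesterol synthesis genes were higher at 5 of 19 with a median of -0.12, which was -0.24 without anti-PD-1 replicate 4, -0.05 without replicate 2 and -0.06 without isotype replicate 3. Endothelial genes were higher at 6 of 15 with -0.09, but the median was 0.03 with 9 of 15 higher without isotype replicate 3 and -0.24 without anti-PD-1 replicate 1, so it had no stable sign. Hypoxia and immediate early genes were each higher at 7 of 14. Schwann cell genes were higher at 3 of 5 and keratinocyte genes at 1 of 2.

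The identifier digit split the tumours into 3 isotype and 1 anti-PD-1 tumour with digit 4, and 1 isotype and 3 anti-PD-1 tumours with digit 5. Among tumours with digit 4, the T cell level of anti-PD-1 replicate 1 was 2.97 against 2.42 to 3.59 in the 3 isotype tumours. Among those with digit 5, the 3 treated tumours were at 3.53 to 4.19 against 2.83 in the single isotype tumour. The list difference was therefore -0.08 in one set and 1.12 in the other, and each set has an arm of 1 tumour. Ctla4 was higher in both, at 5.96 CPM against 2.78 to 5.59 CPM and at 9.83 to 12.5 CPM against 2.06 CPM, and so was Tnfrsf4, at 5.53 CPM against 2.47 to 3.70 CPM and at 6.08 to 7.90 CPM against 3.17 CPM. With the digit as a covariate the count at an unadjusted p under 0.05 was 155, the T cell median was 0.34 with 18 of 19 higher and 0 at that p, and the log2 fold changes of Tnfrsf4, Ctla4 and Fas were 0.84, 1.19 and 0.62. Macrophage activation and neutrophil attractant medians were then 0.05 and 0.09. With 1 tumour in an arm of each set, the digit and the antibody cannot be told apart further.

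**Figure D3:**
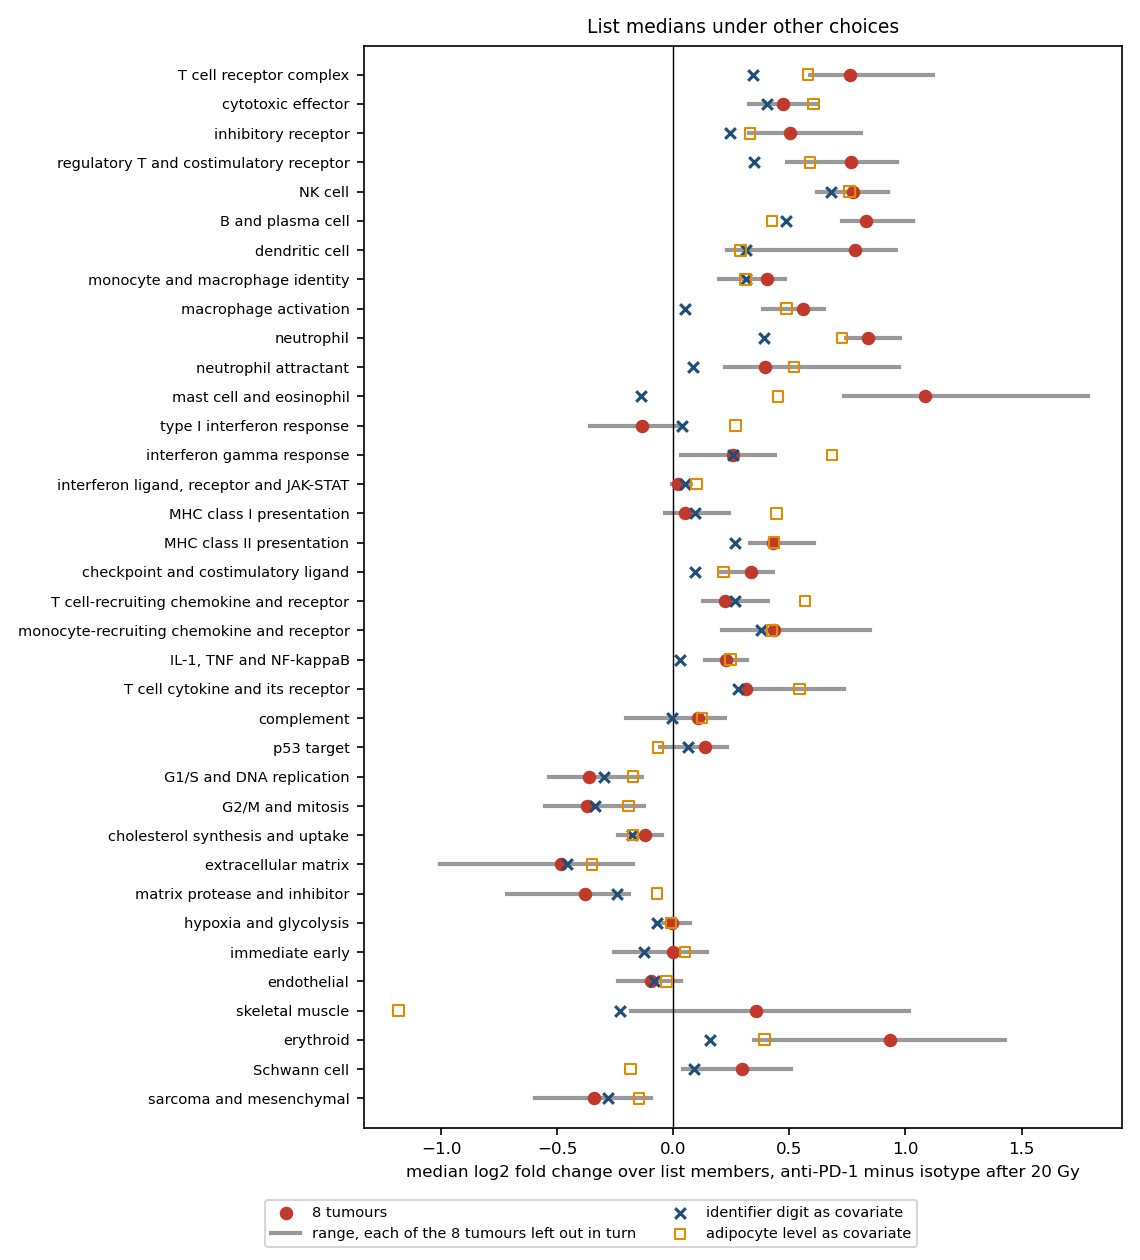
Points are the median log2 fold change over list members, anti-PD-1 minus isotype after 20 Gy; grey bars span the medians when each of the 8 tumours is left out, crosses add the identifier digit as a covariate and squares the adipocyte level (adipocyte and keratinocyte lists are not drawn). T cell, NK cell, B cell and neutrophil medians stay above 0 under each of these choices, and the type I interferon median of -0.13 crosses 0 under several.

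The same antibody comparison without radiation, in 8 other allografts of the line that received 200 ug of antibody and 0 Gy, gives values side by side. It had 0 genes called (0%) and 299 at an unadjusted p under 0.05 (1.68%), of which 226 were higher (1.27%) and 73 lower (0.411%). Over all genes the log2 fold changes of the 2 comparisons were nearly unrelated (Pearson 0.12, Spearman -0.01 across 17746 genes, which are not independent). Of the 451 genes higher after 20 Gy, 297 (65.9%) were higher at 0 Gy too, beside 49% of all genes, and of the 231 lower genes 57.6% were lower beside 51.0% of all. T cell receptor complex genes had medians of 0.76 after 20 Gy and 0.89 at 0 Gy, NK cell genes 0.77 and 0.76, and B and plasma cell genes 0.83 and 0.81. Larger at 0 Gy were the medians of interferon gamma genes (0.92 against 0.26), type I interferon genes (0.56 against -0.13), T cell-recruiting chemokines (0.90 against 0.22) and MHC class I genes (0.51 against 0.05). Mitosis, replication and matrix medians were 0.02, 0.09 and 0.13 at 0 Gy.

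Whether the antibody difference depended on dose was tested gene by gene. No gene passed (0% called, smallest adjusted p 0.864, 0 with DESeq2), and 269 had an unadjusted p under 0.05 with edgeR (1.52%) and 333 with DESeq2. At that p the antibody difference was larger after 20 Gy at 1.18% of genes and smaller at 0.332%, and the interaction was above 0 at 46.3% of all genes. Of the leading genes Tnfrsf4 had 0.99 after 20 Gy and 0.73 at 0 Gy (unadjusted interaction p 0.461) and Ctla4 1.5 and 0.94 (0.317). Jchain had 1.5 and -0.11 (0.0315), Adipoq 4.79 and 0.01 (0.0403), Ica1 -0.76 and 0.04 (0.0252), and Trem2 1.17 and -0.54 (0.021). For these last 4 genes the adjusted interaction p was 0.864. The dependence of whole lists on dose was not tested.

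Primary sarcomas, 8 per arm, grew in place in p53FL/FL mice after Adeno-Cre and MCA and received the same antibodies and 20 Gy. They gave a different set of values. They had 0 genes called (0%) and 1443 at an unadjusted p under 0.05 (8.12%), with 914 higher (5.14%) and 529 lower (2.98%), and 53.7% of all genes tested were above 0. Across 17167 genes tested in both kinds the log2 fold changes ran against each other (Pearson -0.15, Spearman -0.24). Of 406 genes higher in the irradiated allografts 33.0% were higher in the primary tumours, beside 54.1% of all. T cell receptor complex genes had a median of 0.24 there with 16 of 19 higher, while NK cell genes had -0.84 with 1 of 12 higher and type I interferon genes -0.43 with 0 of 23 higher. Some lists went the same way in both kinds. In the primary tumours neutrophil genes had a median of 0.59 with 15 of 15 higher and neutrophil attractants 1.07 with 7 of 7. Macrophage activation genes had 0.56 with 10 of 12 higher and adipocyte genes 2.77 with 7 of 7. Tnfrsf4 was at -0.18, Ctla4 at -0.05 and Fas at -0.31 in the primary tumours.

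A direct test of the difference between tumour kinds called 0 of 19327 genes with edgeR (0% called, smallest adjusted p 0.512), with 1864 at an unadjusted p under 0.05 (9.64%). The difference was higher in the allografts at 5.36% of genes and lower at 4.29%. DESeq2 called 2, Skint3 and Dmp1, named here after their values were seen, in opposite directions. Skint3 had a fitted log2 difference of 21.9 (SE 3.31, adjusted p 7.58e-07), from which no fold can be read: it had 0 counts in 7 of the 8 irradiated allografts, 73 counts in 1 anti-PD-1 tumour, and 0 counts in 4 of 8 isotype and 3 of 8 anti-PD-1 primary tumours. Dmp1 had a log2 difference of -6.07 (SE 1.25, adjusted p 0.0115), lower in the allografts, where 1 isotype tumour held 2253 counts beside a median of 70.0 in that arm. Unadjusted p-values for the difference were 0.0909 for Tnfrsf4, 0.0905 for Ctla4, 0.0234 for Fas, 0.0116 for Klrd1 and 0.00888 for Trem2. All of these genes had the higher value in the allografts, and none passed the adjusted threshold.

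**Figure D4:**
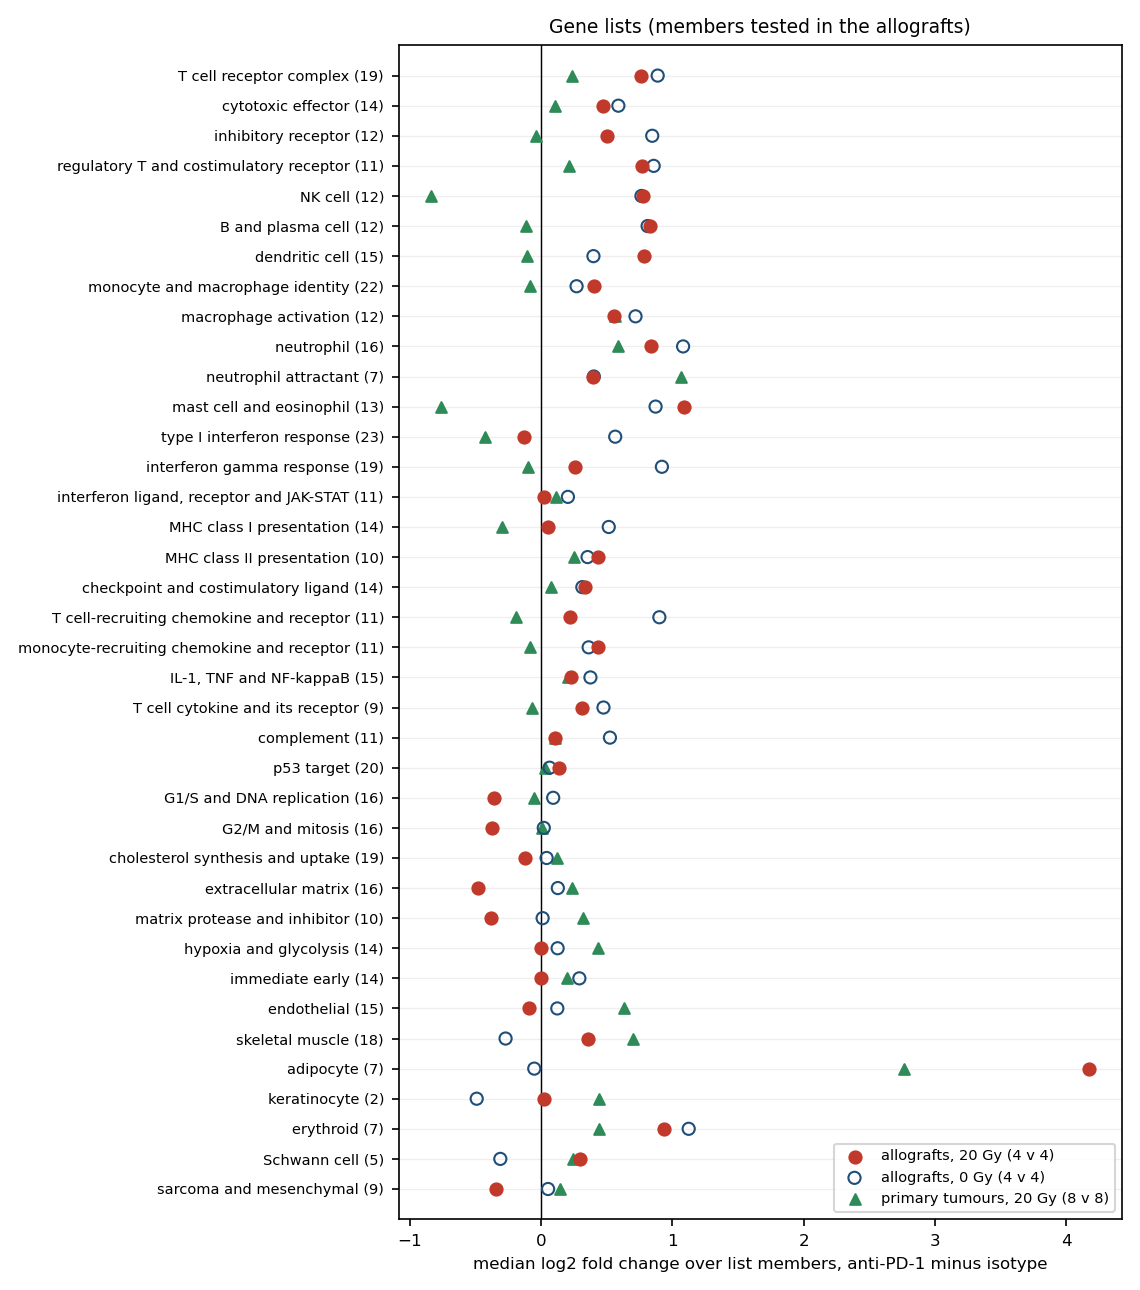
For each gene list the median log2 fold change of anti-PD-1 against isotype is drawn for allografts after 20 Gy (filled circles), allografts at 0 Gy (open circles) and primary tumours after 20 Gy (triangles); numbers in brackets are the members tested. Lymphocyte lists are above 0 in the allografts at both doses, the type I interferon median is -0.13 after 20 Gy and 0.56 at 0 Gy, and the fat median of 4.17 lies apart from the rest.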

How the data were processed

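RNA of 48 mouse tumours was captured with oligo-dT and made into stranded libraries, per the labels' protocols. The authors deposited counts per gene. Per the submitters' processing notes, Trimmomatic 0.36, STAR 5.5.4b, HTSeq and the build mm10 were used. Whether counting used strand is not given in the sources used here, so overlapping and antisense genes may share reads. Symbols were matched through GENCODE M21 for 36796 of 36854 genes.

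From these counts, edgeR 4.0.16 (R 4.3.3) fitted the 16 allografts in 4 groups with its quasi-likelihood test, TMM scaling, its filter on low counts by group and Benjamini-Hochberg adjustment over all genes tested. The dose interaction came from the same fit. A fit of all 48 tumours, with 1 coefficient per group, gave the difference between tumour kinds. Levels are TMM-scaled CPM, and list levels are the mean of log2(CPM + 0.5). Alternatives were DESeq2 1.42.0, other scalings, filters, samples and covariates, and each tumour left out. The pipeline was tested on simulated counts. Chi-square per degree of freedom between tumours was 56.1 to 416.5 over 28 pairs, so no library was a duplicate.

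Named genes were the 10 higher and 10 lower genes with the smallest p among those with separate arms and at least 2 CPM in the higher arm, up to 3 members per list with the smallest p at 1 CPM or more, and a panel of 14 genes. The text gives those that a result turns on, and leaves out 1 item that is not reported here. Other list members were named after their values were seen, for contrast. The gene lists and members were chosen with earlier results of these data known. Promoter sequences are from RefSeq on GRCm38.p6.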

Additional observations from a re-analysis of the deposited data

Results flagged for a closer look

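Within each arm of 4 tumours, the highest or lowest tumour was compared with the rest by Dixon's ratio. Of 358 sets of 4 values, 20 had a tumour set apart, and chance alone sets apart about 5%. Isotype replicate 1 was the tumour concerned in 7 of the 20.

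Among list levels (mean of log2(CPM + 0.5)), isotype replicate 3 was at 2.82 for neutrophil genes against 2.17 to 2.27 in the others. Isotype replicate 1 was at 5.97 for monocyte-recruiting chemokines against 5.26 to 5.35. Isotype replicate 4 was at 6.29 for hypoxia and glycolysis against 6.00 to 6.02, and at 7.59 for mesenchymal genes against 7.27 to 7.32.

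Among single genes on the log2(CPM + 0.5) scale, 6 involved an anti-PD-1 arm or a macrophage marker that the report names. Igkv19-93 was at 3.498 in anti-PD-1 replicate 1 against 1.14 to 1.32. Slfn4 was at 8.69 in anti-PD-1 replicate 3 against 7.73 to 7.81, and Il1b, the interleukin-1 beta gene, at 8.02 in the same tumour against 7.02 to 7.14. Foxp3 was at 2.83 in anti-PD-1 replicate 4 against 1.40 to 1.64. Adgre1 was at 9.15 in anti-PD-1 replicate 2 against 7.87 to 7.99, and at 8.4 in isotype replicate 1 against 7.88 to 7.94.

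The other 10 concerned the isotype arm. Replicate 1 was high for Casp4 (4.43 against 3.62 to 3.74), Cxcl2 (3.42 against 1.83 to 2.02) and Cfp (7.76 against 7.04 to 7.10), and low for Tie1 (4.86 against 5.69 to 5.86) and Neb (2.19 against 7.46 to 8.11). Replicate 2 was high for Retnlg (1.39 against 0.27 to 0.44). Replicate 3 was high for H2-Aa (11.26 against 10.63 to 10.68) and low for E2f1 (5.44 against 5.77 to 5.79). Replicate 4 was low for Cxcl5 (3.13 against 3.86 to 3.93) and Ccr3 (0.69 against 1.31 to 1.41).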

How the results depend on the processing

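With 4 tumours per arm, 0 genes were called under any alternative of the main comparison. No paired analysis was possible because the replicate numbers were given in accession order and pair no tumours. Of the values recomputed for single named genes, 2772 kept their direction and side of the threshold and 47 reversed. With 0 genes called throughout, the side of the threshold did not change for any gene. Many of the reversals were those of Trp53 and Trp63, whose log2 fold changes in the main fit were -0.0028 and -0.075. Among counts and list medians, 638 values did not move and 72 did. The causes were not tested. The adipocyte and muscle levels used as covariates are means over the genes of those lists. Values of those same genes under their own covariate, such as the adipocyte median or Neb below, are therefore partly fixed in advance.

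The number of genes at an unadjusted p under 0.05 was 1373 without a filter, 155 with the identifier digit and 159 with the adipocyte level (chosen after seeing the data), and 281 to 3591 with 1 tumour left out. For the dose interaction it was 728 without a filter, 165 with a stricter filter and 100 to 2058 with 1 tumour left out. For the tumour kinds it was 811 to 3286, and DESeq2 called 2.

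List medians with the identifier digit were 0.35 for regulatory and costimulatory receptors, 0.49 for B and plasma cells, 0.31 for dendritic cells, 0.049 for macrophage activation, 0.39 for neutrophils, -0.14 for mast cells and eosinophils, 0.095 for checkpoint ligands, 0.030 for IL-1 and NF-kappaB, 2.38 for adipocytes, -0.25 for keratinocytes and 0.16 for erythroid genes. With the adipocyte level they were 0.43 for B and plasma cells, 0.29 for dendritic cells, 0.68 for interferon gamma, 0.10 for interferon ligands, 0.45 for MHC class I, 0.22 for checkpoint ligands, 0.57 for T cell chemokines, 0.54 for T cell cytokines, 0.85 for adipocytes, -0.63 for keratinocytes and -0.18 for Schwann cells. Upper quartile scaling and the stricter filter gave 0.11 and 0.11 for interferon ligands and 0.42 and 0.27 for checkpoint ligands.

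With 1 tumour left out, medians ran from 0.49 to 0.96 for regulatory and costimulatory receptors, 0.23 to 0.96 for dendritic cells, 0.22 to 0.97 for neutrophil attractants, 0.73 to 1.78 for mast cells and eosinophils, 0.20 to 0.43 for checkpoint ligands, 0.21 to 0.85 for monocyte chemokines, 0.34 to 0.74 for T cell cytokines, 3.30 to 6.06 for adipocytes, -0.26 to 0.26 for keratinocytes and 0.35 to 1.43 for erythroid genes.

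Log2 fold changes that reversed were, with the adipocyte level Mgl2 -0.18, Ddx58 0.014, Oasl1 0.11, Ccng1 -0.056, Erg -0.077, Ryr1 -0.80, Neb -0.99, Prf1 0.69 and Cdkn1a -0.075, with the identifier digit Cxcl3 -0.39, Ccr3 -0.081, Cma1 -0.25, Neb -0.024 and Prf1 0.0033. The others were, with the muscle level Neb -0.020, with upper quartile scaling Trp63 0.043 and Trp53 0.082, with no filter Trp63 0.00014 and Trp53 0.049, with the stricter filter Trp63 0.030 and Trp53 0.069, with the Xist split Trp63 0.15 and Trp53 0.00089, with DESeq2 Trp53 0.032, with DESeq2's size factors Trp53 0.032, with the 8 tumours alone Trp53 0.040, with all 48 tumours Trp53 0.021. With 1 tumour left out, those whose sign changed ran from -0.032 to 0.45 for Ifngr1, -0.042 to 0.19 for Jak2, -1.50 to 0.17 for Col1a2, -0.061 to 0.37 for Krt10, -0.80 to 0.46 for Trp63, -0.25 to 0.15 for Prf1, -0.032 to 0.43 for Cxcl9, -0.11 to 0.45 for Adgre1, -0.0045 to 0.29 for Cdkn1a and -0.056 to 0.053 for Trp53.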
